A study of Rattus norvegicus with 4 samples.

Results

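The potassium channel genes of the rat trigeminal nerve were examined across spatial transcriptomic spots. A gene was included if its symbol began with Kcn and if it had at least 50 unique molecular identifiers (UMIs, each standing for 1 captured RNA molecule) over all spots. Of the 92 Kcn rows among the 32623 genes listed, 60 were included. The sections came from wild type rats, described as adult male Sprague-Dawley animals. In the trigeminal neuralgia (TN) group the trigeminal root had been compressed mechanically on 1 side, and the root, the semilunar ganglion and the proximal branches of the compressed side of 1 animal filled each of 3 capture areas (TN1, TN2 and TN3). The healthy control (HC) group was 1 capture area holding tissue of 2 animals pooled, which the series record describes as the uncompressed side of 2 of those 3 animals, whereas the methods of the study describe controls as sham operated. No control animal can therefore be separated from another, and condition cannot be told apart from capture area.

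Potassium channels let potassium leave the cell, which returns the membrane to rest after an action potential and limits repetitive firing. In sensory neurons the voltage-gated (Kv) channels shape the spike and the firing threshold, the 2-pore leak channels and inward rectifiers set the resting potential, and channels opened by calcium or sodium act after a spike or a burst. Auxiliary proteins and the so-called silent Kv subunits, which form no channel alone but join other Kv subunits, alter how the pores gate. Loss of potassium channel transcripts in sensory ganglia is a known feature of nerve injury models.

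The 4 capture areas held 1256 to 2013 spots, with a median of 9487 to 30808 UMIs per spot. A spot covers several cells, so fewer cells of a type and less RNA per cell cannot be told apart in any result below. Scaled to CPM (UMIs divided by the total UMIs and multiplied by 1e6), potassium channel UMIs summed to 1346, 848.1 and 773.1 in TN1 to TN3, against 1601 in HC. The areas also held different mixtures of tissue: spots with markers of central neurons were found in TN1 (427) and TN2 (130) and not in TN3 or HC. For that reason the comparison of TN with HC was made chiefly within the ganglion region, the spots led by sensory neuron markers (201, 364 and 165 spots in TN1, TN2 and TN3, and 669 in HC). All 10 sensory neuron markers used to name it, such as Prph, Calca and Scn10a, were detected there in every area. It joins a cluster found in all areas and a cluster led by the injury genes Csrp3, Gal and Atf3, which held 54, 324 and 68 spots in the TN areas and 0 in HC.

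A few genes carried most of the signal. Kcnd1, which encodes the transient A-type channel Kv4.1, gave 26033 UMIs, and Kcna2, which encodes the axonal channel Kv1.2, gave 25383. Together with Kcnk1 (TWIK1, a 2-pore leak channel; 13878 UMIs) and Kcna6 (Kv1.6; 10320 UMIs) they made up 48.6% of all potassium channel UMIs. By subfamily, Kv1 held 24.1% of these UMIs, Kv4 18.9%, the 2-pore channels 12.7% and the silent subunits 9.45%. Most other subfamilies were led by genes with fewer UMIs: Kcns3 (silent, 8543 UMIs), Kcnh2 (the ERG channel, 8386), Kcnab1 (a Kv beta subunit, 6754), Kcnt1 (the sodium-activated channel Slack, 4262), Kcnip4 (a Kv4-interacting protein, 3138), Kcnmb4 (a beta subunit of the BK channel, 3117), Kcnq5 (the Kv7 or M channel, 2150), Kcnn4 (the calcium-activated IK channel, 1978), Kcnj8 (Kir6.1, 1085), Kcne2 (393) and Kcnma1 (the BK pore, 345). These are molecules captured at the polyadenylated end, so transcript length does not scale them, although capture can differ between genes.

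Several channels familiar from sensory and glial physiology were scarce. Kcnq3, a subunit of the neuronal M channel, gave 27 UMIs over all spots. Kcnk18 (TRESK) gave 4, the glial inward rectifier gene Kcnj10 (Kir4.1) gave 31 and Kcnj3 (GIRK1) gave 35. The vessel genes Kcnmb1, Kcne4 and Kcna5 gave 5, 1 and 1, and the immune cell genes Kcna3 and Kcnk6 gave 10 and 0, where a count of 0 allows up to 3 UMIs by counting error alone. Just inside the limit of 50 UMIs stood Kcnf1 with 51 and Kcnh7 with 57. Just outside it stood Kcng1 with 43.

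Promoter sequences, 250 bases before to 50 after the annotated start, were available for 42 of the 60 genes (RefSeq, GRCr8 build). The 3 below belong to genes on which the injury comparison turns: Kcns1 (chr3:173262297-173262596, minus strand) and Kcna2 (chr2:197393280-197393579, plus strand), which were lower in injury-rich spots, and Kcnmb4 (chr7:54005052-54005351, minus strand), which was higher. Capitals mark the letters GGGCGG (the GC box) or CAGCTG (an E-box) on either strand.
Kcns1: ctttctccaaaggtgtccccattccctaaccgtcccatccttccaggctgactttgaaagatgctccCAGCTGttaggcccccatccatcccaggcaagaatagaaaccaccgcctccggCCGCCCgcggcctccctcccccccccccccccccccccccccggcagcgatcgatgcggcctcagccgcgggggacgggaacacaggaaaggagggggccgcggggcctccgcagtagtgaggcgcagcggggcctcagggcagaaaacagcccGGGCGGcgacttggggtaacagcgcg
Kcna2: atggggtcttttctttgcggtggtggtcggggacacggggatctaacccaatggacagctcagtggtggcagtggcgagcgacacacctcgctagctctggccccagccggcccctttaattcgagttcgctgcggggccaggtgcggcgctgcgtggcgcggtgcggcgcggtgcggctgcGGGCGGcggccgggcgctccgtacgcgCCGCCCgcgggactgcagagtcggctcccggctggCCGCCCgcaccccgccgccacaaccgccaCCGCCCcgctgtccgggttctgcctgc
Kcnmb4: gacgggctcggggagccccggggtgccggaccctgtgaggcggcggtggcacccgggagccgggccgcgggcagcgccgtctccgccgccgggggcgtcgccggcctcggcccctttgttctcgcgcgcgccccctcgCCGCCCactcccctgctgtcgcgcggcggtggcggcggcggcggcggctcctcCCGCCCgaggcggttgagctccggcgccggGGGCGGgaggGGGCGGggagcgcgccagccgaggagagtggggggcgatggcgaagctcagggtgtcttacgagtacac
Kcns1 held 2 GC boxes and 1 E-box, whereas Kcna2 and Kcnmb4 held 4 GC boxes each and no E-box. The guanine and cytosine content was 69% for Kcns1, 73.3% for Kcna2 and 80.7% for Kcnmb4. A GC box was present in at least 1 promoter of 23 of the 42 genes (54.8%, against 33.1% of all 33469 promoters). An E-box was present for 11 genes (26.2%, against 15.1%). The letters TGACTCA or TGAGTCA, the site of AP-1 factors, were found for 0 of the 42 genes, against 4.63% of all promoters. The cyclic AMP element TGACGTCA was found for 0 of the 42, against 1.83%. A gene could count through any of its promoters, whereas the shares of all promoters count each singly, so they are not like for like. A match or its absence describes these windows only.

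Across regions, the genes divided mainly between the sensory neurons of the ganglion and the central neurons of the brainstem side. Levels here are CPM within a region, averaged over the capture areas with at least 20 of its spots. Because regions were defined by clustering the same spots, these levels are described without a test, although every Kcn gene was left out of the clustered genes. The summed level of the 60 genes was highest in the central neuron region (1542 ± 14.23 CPM, SD, n = 2 areas) and the sensory neuron region (1485 ± 357.4, n = 4), which do not differ beyond that spread. An unnamed region with both sensory neuron and peripheral myelin markers followed at 1269 ± 199.2 (n = 4), within the spread of the sensory neuron region. The summed level was 777.8 ± 277.7 (n = 4) in blood and bone, 714 ± 32.57 (n = 2) in peripheral myelin and 594.3 ± 149.7 (n = 4) in central myelin. It was 516.2 ± 98.71 (n = 2) in another unnamed region, 480 ± 62.63 (n = 2) in the astrocyte region and 427.8 ± 24.04 (n = 2) in connective tissue.

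**Figure D1:**
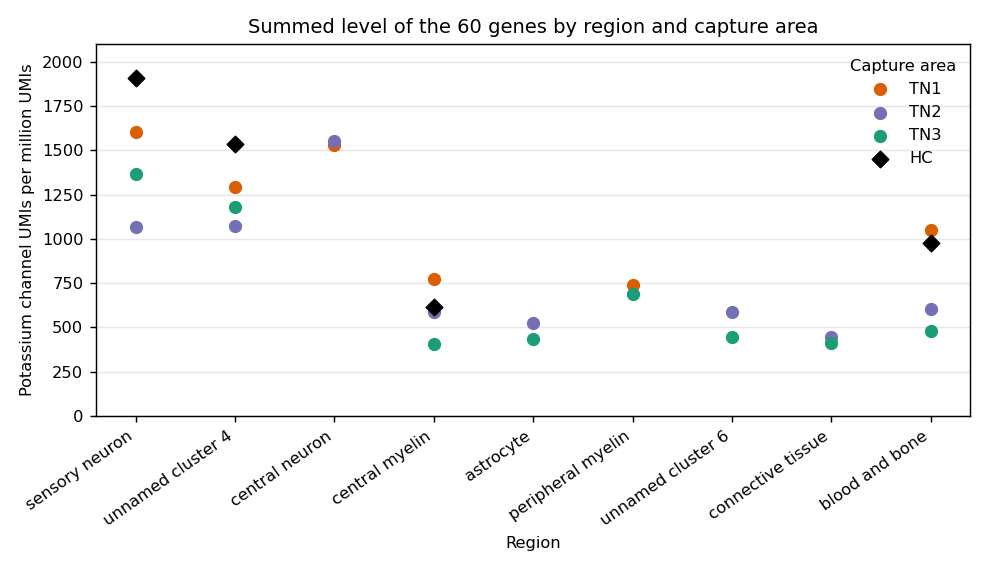
Summed level of the 60 potassium channel genes (vertical axis, CPM of the region) in each region (horizontal axis), 1 point per capture area with at least 20 spots. In the sensory neuron region HC stands highest at 1908 and TN2 lowest at 1065, while both areas with central neuron spots lie near 1542.

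Counting where each gene peaked, 22 of the 60 genes (36.7%) had their highest mean level in the sensory neuron region, compared with 18.3% of all 13557 genes with at least 50 UMIs. Another 16 (26.7%) peaked in the central neuron region, compared with 13.4% of all genes. The remaining peaks were spread over connective tissue and peripheral myelin (5 each), the astrocyte, blood and bone and 1 unnamed region (3 each), central myelin (2) and a second unnamed region (1).

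In sensory neuron spots the leading gene was Kcnd1, with 288.8, 248.1 and 249.5 CPM in TN1, TN2 and TN3 and 387.4 in HC. Kcna2 followed with 262, 126.4 and 243.9 CPM in the TN areas and 315.9 in HC, and Kcnk1 was next at 99.36 ± 34.87 (SD, n = 4). Kcns3 lay at 98.62 ± 40.17 CPM in this region, level with Kcnk1 within the spread. TN2 was the lowest area for each of these genes. Kcna4 (Kv1.4), Kcnq5, Kcns1, Kcnd3 (Kv4.3), Kcnh1 (the EAG channel), Kcnt2 (Slick) and Kcnma1 also peaked here. For none of the 22 genes did the lowest area of the sensory neuron region exceed the highest area of every other region.

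The central neuron region was marked by Kcnc1 (Kv3.1), one of the fast Kv3 channels that allow neurons to fire at high rates. Kcna2 was more abundant there, at 239.4 CPM over TN1 and TN2, but its mean was nearly the same in the sensory neuron region (237). The latter mean also takes in TN3 and HC, which had no central neuron spots, so these means are not like for like. Kcnc1 reached 113.9 CPM in TN1 and 158.2 in TN2, clear of every area of every other region. The next region was blood and bone, where it averaged 15.95 CPM, with TN1 highest (41.42). Of the genes at least 4-fold higher in 1 region than in the next, all 5 were central (8.33% of the genes, against 1.23% of all genes). Besides Kcnc1 they included Kcnab3 (a Kv beta subunit), Kcnn2 (SK2) and the 2-pore gene Kcnk15. Each of the 3 rested on 1 area: Kcnk15 had 28.61 CPM in TN2 and 2.468 in TN1, Kcnab3 11.46 in TN1 and 1.929 in TN2, and Kcnn2 6.17 in TN1 and 1.929 in TN2, so that they overlapped other regions. Kcnab1 was also highest in this region at 147.4 CPM, though its levels of 88.15 in TN1 and 206.7 in TN2 lay far apart.

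Glial and connective regions had leading genes of their own. Kcna6 was highest in central myelin, at 152.9, 158.6 and 136.5 CPM in TN1, TN2 and TN3 and 171.4 in HC, above every area of every other region. The next region was the sensory neuron region, at 95.72 ± 13.39 (SD, n = 4). Kcnk1 was highest in peripheral myelin, at 224.9 CPM in TN1 and 204.6 in TN3, where Kcna2 was second at 175.4 ± 2.929 (n = 2). Kcnk2 (TREK1, a leak channel opened by stretch) was highest in connective tissue at 32.74 ± 4.371 (n = 2), as were Kcnj8 at 14.56 ± 0.3757 and Kcnn4 at 23.89 ± 4.154. Kcnj16 (Kir5.1, a glial rectifier subunit) was highest in the astrocyte region, at 25.47 CPM in TN2 and 13.59 in TN3, overlapping the central neuron region. Kcnmb4 was highest in an unnamed region of mixed connective tissue and peripheral myelin markers, at 38.19 CPM in TN2 and 26.41 in TN3.

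**Figure D2:**
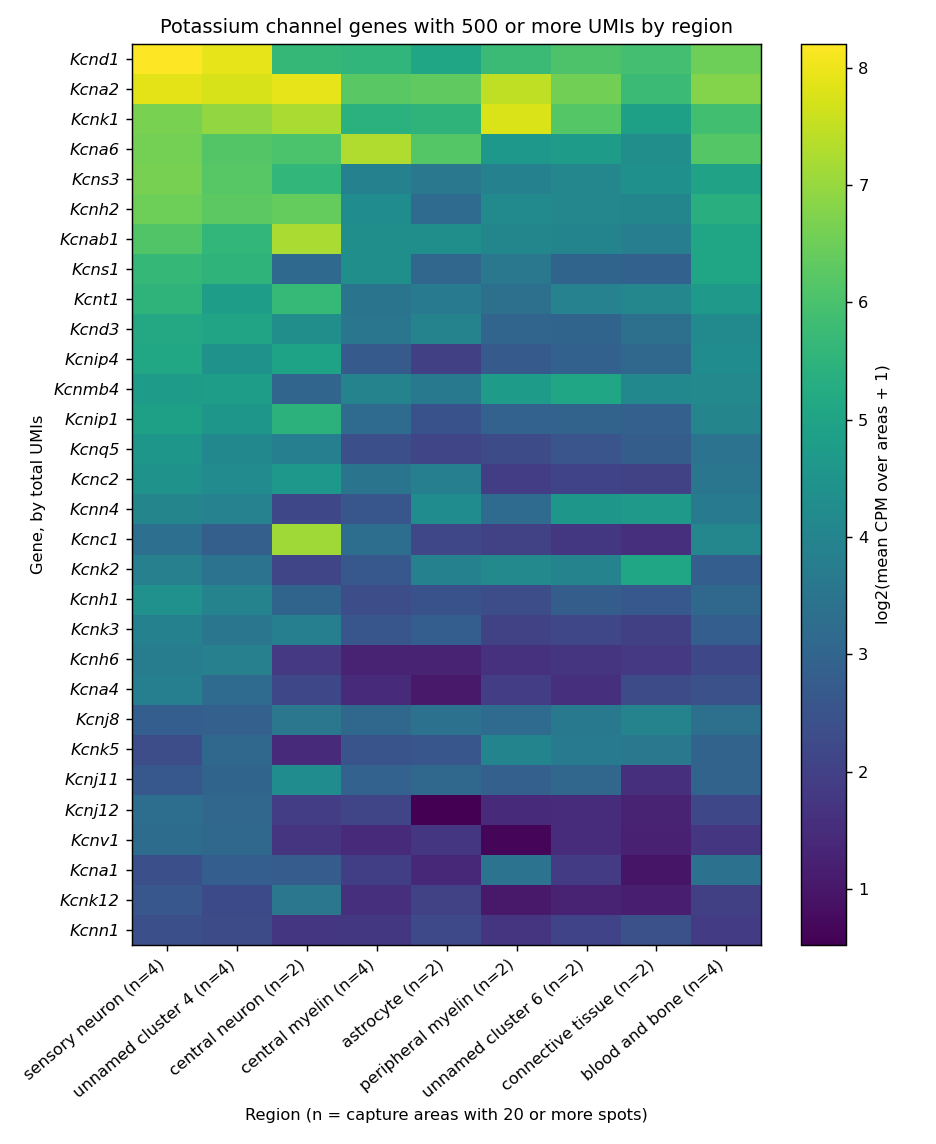
Mean level of potassium channel genes with at least 500 UMIs (rows, ordered by total UMIs) in each region (columns; n is the number of capture areas averaged), coloured by log2(mean CPM + 1). Kcnd1 is bright in the sensory neuron region, and Kcna2 is bright there and in the central neuron region alike. Kcnc1 is bright in the central neuron region, Kcna6 in central myelin and Kcnk1 in peripheral myelin.

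In the ganglion region, most potassium channel genes lay lower in the TN areas than in HC, but none passed the test. Of 56 genes with enough counts to test, 29 were below HC in all 3 TN areas (51.8%), while 29.5% of all 12828 genes tested were. Only 5 were above HC in all 3 (8.93%, against 27.5% of all genes). Their median log2 fold change was -0.36, against 0.03 over all genes. By edgeR's quasi-likelihood test with Benjamini-Hochberg adjustment 0 of the 56 were called, as were 0% of all genes, and DESeq2 also called 0. At an unadjusted p under 0.05 there were 9 of the 56, compared with 9.18% of all genes. Here and below the single HC area is assumed to vary as the TN areas do. That leaves 2 residual degrees of freedom with all areas, and fewer whenever an area is left out.

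Voltage-gated pore genes were among those on the lower side. Kcna1 (Kv1.1) stood at 4.333, 2.875 and 2.459 TMM-normalized CPM in TN1, TN2 and TN3 and at 7.408 in HC, a log2 fold change of -1.195 ± 0.42 (SE; adjusted p = 0.536, edgeR's quasi-likelihood test with Benjamini-Hochberg adjustment). Kcnc2 (Kv3.2) stood at 22.09, 11.81 and 17.36, and 32.44 in HC. In both genes every TN area lay below HC, with TN1 nearest to it. The abundant Kcnd1 stood at 287.5, 242.1 and 248.8 CPM, against 401.2 in HC (log2 fold change -0.63 ± 0.18; unadjusted p = 0.0134), and Kcna2 at 260.8, 123.3 and 243.2, against 327.1 (-0.65 ± 0.40). Kcnd1 was closely grouped in the TN areas, whereas Kcna2 in TN2 was well below TN1 and TN3. Both Kv4 genes, 3 of 4 Kv1 genes and 2 of 4 Kv3 genes were below HC throughout, and Kcnh6 (an ERG-type channel) was too, at 13, 7.751 and 10.99 CPM against 18.1.

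The silent subunits had the lowest median of the larger subfamilies, at -0.84 on the log2 scale, with 5 of 6 below HC in every TN area. Kcns1 stood at 50.84, 17 and 43.4 CPM in TN1, TN2 and TN3 and at 87.23 in HC (log2 fold change -1.24 ± 0.52). Kcns3 stood at 105.9, 43.07 and 102.7, and 146 in HC (-0.80 ± 0.47), and Kcnv1 at 5.813, 7.5 and 7.667, and 12.83 in HC (-0.88 ± 0.30). TN2 was by far the lowest for Kcns1 and Kcns3, and TN1 the lowest for Kcnv1. Kcnf1 rested on few molecules, with 4, 1 and 2 UMIs in the TN areas and 30 in HC.

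Genes of the remaining classes showed differences of various sizes. Kcnq5 was at 22.62, 17.25 and 19.09 CPM in the TN areas and 32.92 in HC (log2 fold change -0.75 ± 0.23), and the leak channel gene Kcnk3 (TASK1) at 12.15, 12.13 and 11.43, and 20.08 in HC. These were among the genes whose TN areas agreed best with each other. Kcnip3, a calcium-binding Kv4 partner, was at 3.382, 1.313 and 2.604, and 4.714 in HC, and the 2-pore gene Kcnk7 at or under 1.307 CPM in every area. Kcnt1 (-0.24 ± 0.22), Kcnma1 (-0.12 ± 0.37), Kcnk2 (-0.27 ± 0.25), Kcnh1 (-0.19 ± 0.23) and Kcna6 (-0.11 ± 0.24) had log2 fold changes about as large as their standard errors or smaller. The same held for Kcnn1 (SK1, -0.45 ± 0.44), Kcnt2 (-0.23 ± 0.47), Kcnj8 (0.06 ± 0.54), Kcnn4 (0.10 ± 0.42), Kcnj16 (0.58 ± 0.83) and Kcnc4 (Kv3.4, 0.31 ± 0.77).

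On the higher side, Kcnmb4 had the best-supported difference. It stood at 25.15, 37.56 and 25.75 CPM in TN1, TN2 and TN3 and at 15.25 in HC, a log2 fold change of 0.96 ± 0.31 (adjusted p = 0.536, edgeR's quasi-likelihood test with Benjamini-Hochberg adjustment). Every TN area was above HC, with TN2 highest. Kcne2 (1.902, 2.313 and 3.472 CPM, and 1.386 in HC), Kcnn3 (SK3; 2.642, 2.375 and 2.025, and 1.862 in HC) and Kcnj14 (an inward rectifier, at most 0.8455 CPM) were also above HC in each TN area, at low levels. The leak channel gene Kcnk13 (THIK1, known from microglia) had 9, 20 and 3 UMIs in the TN areas and 3 in HC. The summed level of 8 macrophage markers was also above HC in each TN area, at 504.8, 1317 and 748.3 CPM against 213.7 in HC. Both were highest in TN2, but the marker sum was lowest in TN1 and Kcnk13 in TN3 (0.434 TMM-normalized CPM). Among the 8 markers, Cd163 lay below HC in each TN area. The part of macrophages in these values was not tested.

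**Figure D3:**
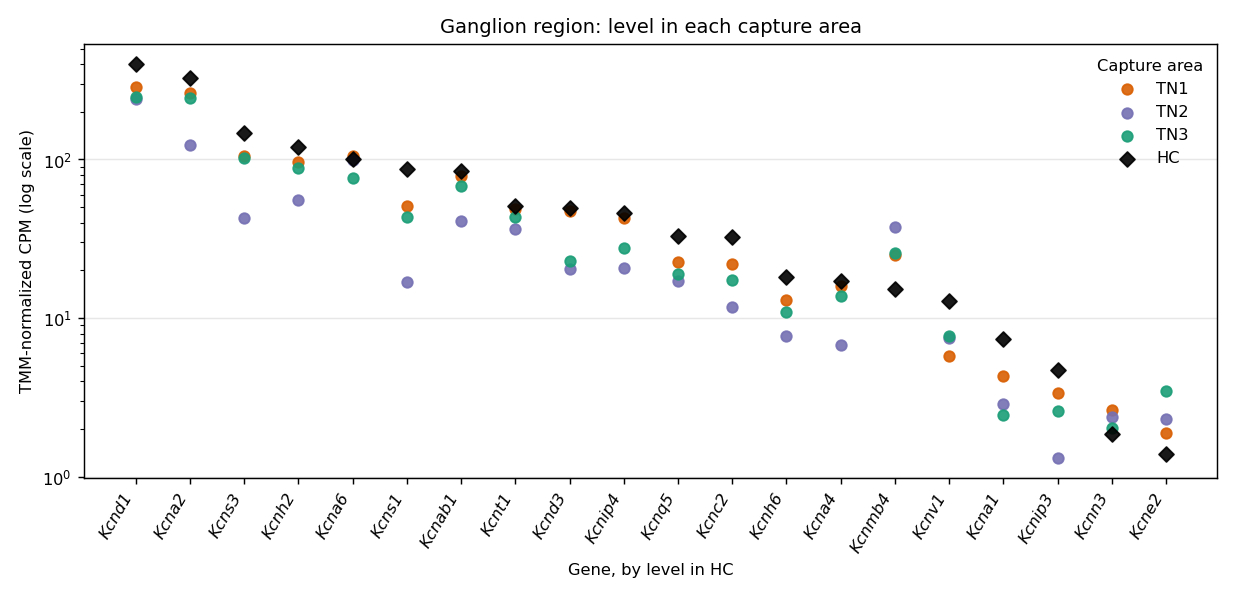
Level of potassium channel genes in the ganglion region (vertical axis, TMM-normalized CPM on a log scale) in each capture area. The genes (horizontal axis, ordered by their level in HC) are a selection of those in the text. Each is at 2 CPM or more in HC or in the TN mean. The selection favoured large changes in the same direction in every TN area, and several genes with small or mixed differences are not drawn. The plot therefore does not give the share of genes below HC. HC (diamonds) lies above the TN points for most genes drawn and below them for Kcnmb4, Kcnn3 and Kcne2.

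The tissue behind these values differed between areas in other ways. Summed levels in the ganglion region were 8160, 7449 and 7038 CPM for the 10 sensory neuron markers in TN1, TN2 and TN3, and 8182 in HC. They were 15480, 14340 and 13740, and 14380 in HC, for 6 markers of neurons of any kind. Connective tissue markers (6 genes) summed to 1083, 3336 and 2525, and 1082 in HC, and 10 nerve injury genes to 707.5, 1695 and 776.8, and 80.59 in HC. TN2 thus had the highest injury, macrophage and connective levels and the lowest levels of Kcna2, Kcns1 and Kcns3. The part of these differences in the potassium channel values was not tested.

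The result rested heavily on TN1. Leaving it out leaves only TN2 and TN3 to give the spread, with fewer residual degrees of freedom than the full fit. Calls made without TN1 therefore depend on how closely TN2 and TN3 agree. Without TN1, 14 of 55 genes were called lower and 1 higher, compared with 4.25% and 6.47% of all genes, by edgeR's quasi-likelihood test with Benjamini-Hochberg adjustment. Among the genes lower were Kcns1 (log2 fold change -1.57), Kcna1 (-1.46), Kcnd3, Kcnc2, Kcns3, Kcnh6, Kcnip4, Kcnq5, Kcnk1, Kcna2, Kcnh2, Kcnd1 and Kcnf1, and the gene higher was Kcnmb4 (1.06). Without TN2 or without TN3, 0 were called. Within the sensory neuron cluster common to all areas, an alternative chosen after seeing the data, 19 of 47 genes tested were below HC in all TN areas (40.4%, against 27.7% of all genes) and 0 were called. Their median log2 fold change there was -0.16, against 0.02 over all genes. Kcns3 stood at -0.25 on that scale within this cluster, Kcnq5 at -0.16, Kcna2 at -0.27, Kcnd1 at -0.31 and Kcnv1 at -0.23, while Kcns1 stood at -0.70 and Kcna1 at -1.16.

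Whole capture areas gave larger differences in the same direction, and there the mixture of tissue also enters. Over all spots the 10 sensory neuron markers summed to 4638, 4238 and 3031 CPM in TN1, TN2 and TN3, and 6582 in HC. The part of that mixture in the values below was not tested. All 60 genes could be tested and 0 were called, as were 0% of 14902 genes, by edgeR's quasi-likelihood test with Benjamini-Hochberg adjustment or by DESeq2. At an unadjusted p under 0.05 there were 10, compared with 8.53% of all genes. Below HC in every TN area lay 33 genes (55%, against 30.6% of all genes), and above it 6 (10%, against 28.7%). Kcns1 stood at 34.27, 10.02 and 21.16 CPM and 73.08 in HC, and Kcnv1 at 4.037, 4.229 and 3.178 and 10.73 in HC. Kcnf1 was at most 0.2523 CPM in a TN area and 0.9088 in HC. Kcnk13 (1.304, 1.716 and 2.306, and 0.3534 in HC), Kcnj13 (Kir7.1, at most 1.194) and Kcnab3 (3.238 in TN1 but 0.3731 and 0.1558 in TN2 and TN3, and 0.1515 in HC) lay above HC in every TN area. Without TN1, 18 genes were called lower and 1 higher, compared with 6.7% and 8.07% of all genes.

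In the central myelin region no general shift of potassium channel genes was seen. Of 25 genes tested, 0 were called, as were 0% of 9118 genes, by edgeR's quasi-likelihood test with Benjamini-Hochberg adjustment or by DESeq2, and 2 had an unadjusted p under 0.05, compared with 3.22% of all genes. There were 5 genes below HC in all TN areas (20%, against 20.9%) and 4 above (16%, against 20.4%), and their median log2 fold change was -0.06. Kcna6, the leading gene of this region, was at 150.1, 156.4 and 139.8 TMM-normalized CPM in the TN areas and 178.7 in HC (-0.26 ± 0.21). Kcns3 (13.48, 12.51 and 6.194, and 23.87 in HC), Kcnd3 (11.64, 10.72 and 3.539, and 17 in HC) and Kcnd1 (64.34, 34.85 and 19.47, and 67.98 in HC) lay lower. TN3 was the lowest area for each of them. Kcnc1 lay highest above HC in the fit, at 16.55, 16.98 and 0.8848 CPM and 0.8093 in HC, so that the difference came from TN1 and TN2. The summed level of 5 central neuron markers in the same spots was 119.8 and 49.84 CPM in TN1 and TN2, and 19 and 24.46 in TN3 and HC. Kcnk2 and Kcnj5 (GIRK4) were also above HC in each TN area, by 0.74 ± 0.88 and 0.69 ± 0.86 on the log2 scale. On the log2 scale, Kcnd1 moved from -0.75 to -1.31 and Kcns3 from -1.13 to -1.33 when TN1 was left out. Kcnc1 moved from 3.76 to 4.29 when TN3 was left out.

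Whether the TN contrast differed between the ganglion and central myelin regions was tested directly. Of 54 genes, 0 differed by edgeR's quasi-likelihood test with Benjamini-Hochberg adjustment, compared with 0.0235% of 12772 genes, and 7 had an unadjusted p under 0.05, compared with 5.33% of all genes. The lowest unadjusted p was that of Kcnc1 (0.000741; adjusted p = 0.342 in the same edgeR test), whose UMIs in central myelin were 27, 19 and 1 in the TN areas and 4 in HC. The median of this difference was -0.46 on the log2 scale over the 54 genes, against -0.05 over all genes. The difference was negative for 35 of the 54, and for 6961 of all 12772 genes. Those values were not tested as a set. With 0 genes called, a lower level in the ganglion and not in central myelin was not shown as a difference between the regions.

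A comparison within each TN area removes the difference between areas. Ganglion spots of each TN area were divided at the area's median share of 10 injury genes (Atf3, Sox11, Sprr1a, Gal, Ecel1, Npy, Csrp3, Flrt3, Gadd45a and Cckbr), none of which is a potassium channel gene. The 3 areas, each with its injury-high and injury-low sum, served as the replicates. There were 100 and 101 spots in TN1, 182 and 182 in TN2 and 82 and 83 in TN3, injury-high first. Of 41 potassium channel genes with enough counts, 15 were called lower in injury-high spots and 1 higher by edgeR's quasi-likelihood test with Benjamini-Hochberg adjustment, compared with 5.92% and 5.32% of all 10575 genes. Those below in all 3 areas numbered 21 (51.2%, against 23.5% of all genes), and those above 5 (12.2%, against 22.5%). Their median log2 fold change was -0.39, against 0 over all genes.

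Among Kv1 and Kv4 genes, Kcna2 fell in each area. Its level went from 335 CPM in injury-low to 212.2 in injury-high spots of TN1, from 157.2 to 87.44 in TN2 and from 300.3 to 179.2 in TN3. The log2 fold change was -0.75 ± 0.07 (SE; adjusted p = 8.24e-06, edgeR's quasi-likelihood test with Benjamini-Hochberg adjustment, 3 pairs). Kcna4 fell from 22.55 to 11, from 8.853 to 4.511 and from 19.46 to 7.231 CPM (-1.12 ± 0.17), the largest fall of a Kv1 gene. Kcnd1 fell less, from 315.2 to 280.6, from 274.8 to 209.1 and from 298.4 to 193.7 (-0.39 ± 0.08), and Kcnd3 fell by 0.72 on the log2 scale. Not every Kv1 gene was lower: Kcna1 (0.31 ± 0.29) and Kcna6 (0.25 ± 0.08, adjusted p = 0.0808 in the same edgeR test) did not pass the test.

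The silent subunits Kcns1, Kcns3 and Kcnv1 fell together. Kcns1 had 67.18 CPM in injury-low and 39.71 in injury-high spots of TN1, 25 and 8.359 in TN2, and 62.17 and 22.01 in TN3 (log2 fold change -1.19 ± 0.14; adjusted p = 7.38e-05, edgeR's quasi-likelihood test with Benjamini-Hochberg adjustment). Kcns3 had 142.8 and 80.23, 62.81 and 21.76, and 133.8 and 67.6 (-1.09 ± 0.11; adjusted p = 1.58e-05 in the same edgeR test). Kcns1 had the largest fall of the 15 genes, and both falls were present in every area. Kcnv1 fell by 0.89 on the log2 scale. The fourth silent subunit tested, Kcng2, was lower in all 3 areas without passing the test (-0.96 ± 0.39).

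Other classes took part as well. Both sodium-activated channels fell, Kcnt2 (-1.16 ± 0.28) more than Kcnt1 (-0.32 ± 0.09), as did Kcnq5 (27.72 to 19.55, 22.73 to 11.41 and 27.03 to 10.06 CPM; -0.91 ± 0.16), Kcnh2 (-0.48 ± 0.08) and Kcnk1 (-0.47 ± 0.08). The auxiliary genes Kcnab1 (105.5 to 60.89, 54.79 to 26.27 and 80.55 to 54.08 CPM; -0.82 ± 0.10) and Kcnip4 (-0.86 ± 0.13) fell too. Pores and auxiliary subunits were thus both among the 15.

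Kcnmb4 was the only potassium channel gene called higher. It had 19.73 CPM in injury-low and 31.36 in injury-high spots of TN1, 33.74 and 42.33 in TN2, and 21.08 and 31.44 in TN3 (log2 fold change 0.48 ± 0.11; adjusted p = 0.0108, edgeR's quasi-likelihood test with Benjamini-Hochberg adjustment). The pore gene it accompanies, Kcnma1, had a log2 fold change of -0.10 ± 0.27. Kcne3 (0.58 ± 0.27), Kcnn3 (0.53 ± 0.33) and Kcnn4 (0.27 ± 0.15) were above in all 3 areas but did not pass the test. Kcnk2 (-0.09 ± 0.16), Kcnn1 (-0.05 ± 0.29) and Kcnj8 (-0.28 ± 0.22) did not pass it either.

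**Figure D4:**
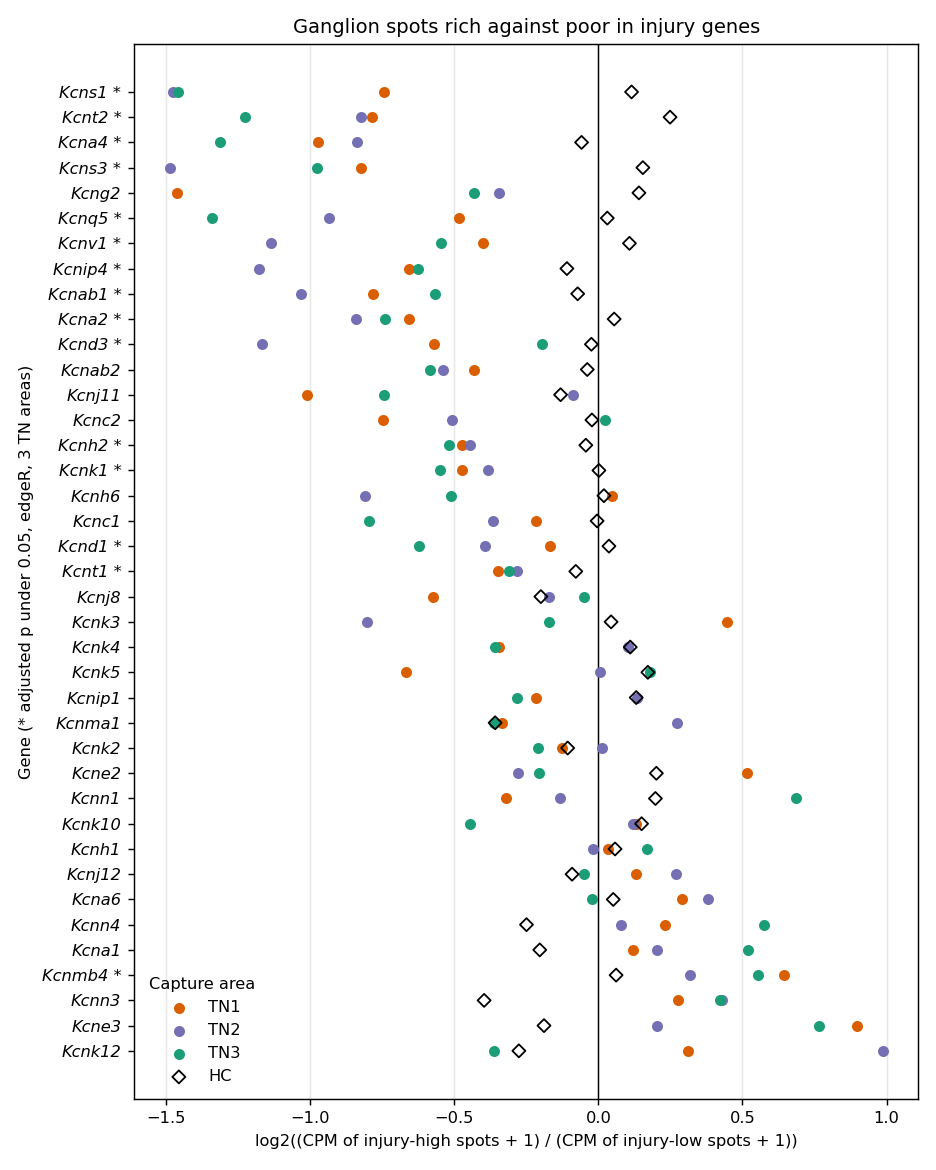
Log2 ratio of the level in injury-high to that in injury-low ganglion spots, each CPM raised by 1 (horizontal axis), for tested potassium channel genes (vertical axis, ordered by fold change), with 1 filled point per TN area and an open diamond for HC divided by the same genes. The 3 TN points lie left of 0 for most genes, whereas the HC diamonds lie between -0.40 and 0.25.

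The HC area, divided in the same way into 334 and 335 spots, gave no such shift: 20 of the 41 genes were lower in its injury-high spots, with a median log2 ratio of 0. Of the 15 genes called lower in TN, 6 were lower in HC, with a median of 0.03. Kcns1, for example, had 80.75 CPM in injury-low and 87.56 in injury-high spots of HC, Kcna2 309.7 and 321.8, and Kcns3 133.2 and 148.4. Injury genes were scarce in HC, at 80.59 CPM in the whole ganglion region, so its division separates spots by few molecules.

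Neuron markers moved in different directions in the same spots. The 6 markers of neurons of any kind summed to 13950 CPM in injury-low and 16770 in injury-high spots of TN1, 12950 and 15860 in TN2, and 13320 and 14240 in TN3. Stmn2, a microtubule regulator of growing axons, and Tubb3, a neuronal tubulin, were called higher (log2 fold changes 0.55 and 0.53; adjusted p = 0.000254 and 0.000202), whereas Snap25, a protein of transmitter release, fell in every area (-0.71; adjusted p = 1.88e-05, edgeR's quasi-likelihood test with Benjamini-Hochberg adjustment). Thy1 (-0.20) and Elavl4 (-0.13) were lower in all 3 areas and Uchl1 (0.04) was mixed, none of them past the test. The 10 sensory neuron markers went from 7808 to 8457 in TN1, from 8301 to 6516 in TN2 and from 7058 to 7016 in TN3. Macrophage markers were higher in each area (322.7 to 658.3, 1086 to 1571 and 563 to 965.4), as were connective tissue markers (879.8 to 1254, 3330 to 3343 and 2100 to 3022). Peripheral myelin markers (8 genes) went from 8334 to 12800 in TN1 and from 11900 to 16550 in TN3, but from 16640 to 13840 in TN2. Kcnmb4 averaged most in an unnamed cluster led by connective tissue and peripheral myelin markers (38.19 CPM in TN2 and 26.41 in TN3), a range that overlapped that of the sensory neuron region (14.73 to 38.5). The part of these markers in the potassium channel values was not tested. Median UMIs per spot were 46975 and 50552.5 in TN1, 42977 and 39795 in TN2, and 43364 and 39924 in TN3, injury-low first.

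The division of spots largely followed the 2 sensory neuron clusters in TN1 and TN3. The injury-led cluster supplied 53, 182 and 66 of the injury-high and 1, 142 and 2 of the injury-low spots in TN1, TN2 and TN3. Confined to the cluster common to all areas, an alternative chosen after seeing the data, 1 of 32 genes was called lower (Kcna2), compared with 0.174% of all genes, and the median log2 fold change was -0.18. Confined to the injury-led cluster, likewise chosen afterwards, 4 of 23 were called lower (Kcns1, Kcns3, Kcna2 and Kcnd3), compared with 1.59% of all genes, and Kcna6 was called higher (log2 fold change 0.34). The median there was -0.23, so that in both clusters it was nearer to 0 than the -0.39 of the whole region. In those alternatives Kcnmb4 stood at 0.28 and -0.01, neither past the threshold.

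Proteins that place or modulate potassium channels were taken from a list of 24 partner genes. In the injury comparison 4 of 17 tested fell and 0 rose by edgeR's quasi-likelihood test with Benjamini-Hochberg adjustment, compared with 5.92% and 5.32% of all genes. They were Amigo1, an adhesion protein bound to Kv channels (log2 fold change -0.79 ± 0.10), Lgi3, a secreted Kv1-associated protein (-0.75 ± 0.07), Dpp6, a Kv4 partner (-0.59 ± 0.08), and Epb41l3, a scaffold near the node of Ranvier (-0.30 ± 0.07). In TN against HC in the ganglion, 0 of 20 were called and 3 had an unadjusted p under 0.05, compared with 9.18% of all genes. Those 3 were Amigo1 (91.63, 53.63 and 70.45 CPM, and 155.2 in HC), Lgi3 (289, 130.8 and 204, and 423 in HC) and Dlg4 (PSD-95; 8.455, 10.25 and 9.547, and 19.53 in HC), all below HC in each TN area. Both comparisons use the same TN spots, so they are not independent of each other.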

How the data were processed

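UMI counts per gene and spot were deposited by the authors as 1 matrix of the 4 capture areas; per the file headers it came from Space Ranger 1.2.0, with alignment by STAR per the labels, and a genome build was not given in the sources used here; these counts are raw. Spots were assigned to capture areas by the barcode suffix (1 to 3 for TN, 4 for HC), in the order of the series record. Members and gene lists were chosen with earlier results of these data known. Named genes were the leading member of each subfamily and region, members at least 4-fold higher in 1 region, members called, the largest changes on 1 side in every area, preset lists of sensory neuron, glial, vessel and immune cell channels, and the genes next to the limit of 50 UMIs.

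Spots were clustered without any Kcn gene (Seurat 5.3.0, sctransform 0.4.2, 3000 variable genes, 30 principal components, K-means with 10 clusters and 50 starts), and clusters were named from marker lists. No spot was filtered. UMIs were summed per region and area (20 spots or more) and tested with edgeR 4.0.16 (quasi-likelihood, filterByExpr, TMM, Benjamini-Hochberg over all genes tested, threshold 0.05) in R 4.3.3. The area is the replicate. DESeq2 1.42.0, other scalings, filters, clusterings and left-out areas were alternatives. Fold changes are edgeR's, and ratios per area use CPM + 1. Total UMIs per area were 23546025 to 41335930. Scripts were tested on simulated data. A gene and its overlapping or antisense neighbour may share reads. Some genes counted in the totals are not reported here by name, in the text or in the plots.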

Additional observations from a re-analysis of the deposited data

How the results depend on the processing

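No paired analysis was possible because HC is 1 capture area and carries no number that it shares with a TN area. The injury comparison is paired within areas by design. Leaving out TN areas in turn gave 0 to 15 genes called in the ganglion (28 to 44 lower and 3 to 10 higher in all TN areas), 0 to 19 over all spots (33 to 43 lower, 6 to 12 higher), 0 to 2 in central myelin (7 to 8 lower, 3 to 8 higher), 0 to 2 for the difference between regions, and 14 to 21 in the injury comparison (25 to 26 lower, 6 to 9 higher in all areas); TN1 sets the ganglion and whole-area counts. With an area left out, lower or higher in all areas means in each remaining area, a laxer rule than in all 3. Those counts are therefore not like for like with the counts of the full comparisons. They are given without the share over all genes, as are the genes called between regions and in the injury comparison. With 8 clusters 3 ganglion genes were higher in all TN areas. In central myelin, no filter on low counts gave 7 higher and 13 lower, 12 clusters 2 higher, and log-normalised clustering 2 higher and 2 lower.

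Within the cluster common to all areas, added after seeing the data, the ganglion counts were 3 higher and 19 lower, and Kcnn3 reversed to -0.16 on the log2 scale. In the injury comparison that cluster gave 1 gene called, 1 higher and 9 lower in all areas, with Kcnn4 at -0.17 and Kcnv1 at 0.0025, both reversed. The injury-led cluster alone gave 5 called, 2 higher and 7 lower, with Kcnmb4 at -0.0088 and Kcnn4 at -0.0561, also reversed. These subsets hold fewer spots and tested fewer genes. Taking only the spots at either end of the injury share called 18 potassium channel genes, a count given without the share over all genes. Kcnt1 was lost when any 1 area was left out, Kcnmb4 without TN1 (adjusted p = 0.074, edgeR) and Kcnv1 without TN2. The number of genes peaking in the sensory neuron region was 18 to 25 over the clusterings. The comparisons with HC and the injury comparison each have 2 residual degrees of freedom, and fewer with an area left out. Depth limits genes such as Kcnf1, with 4, 1 and 2 UMIs in the TN ganglion regions and 30 in HC.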

Other observations

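The blood and bone region also held potassium channel RNA at levels that differed between areas. Its summed level was 1048, 602.5 and 482.2 CPM in TN1 to TN3, and 977.9 in HC. Kcns1 in these spots stood at 44.28, 10.57, 31.04 and 44.87 CPM, and Kcnd1 at 114.3, 26.43, 52.1 and 170.5, in that order, HC last. TN1 and HC were the highest areas for both genes. An unnamed region with both sensory neuron and peripheral myelin markers had 1293, 1071 and 1178 CPM in the TN areas and 1535 in HC, so that HC was highest there as in the sensory neuron region.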
